A study of Saccharomyces cerevisiae with 3 samples.

Results

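Of 6399 array features in a chromatin experiment on the repressor Maf1 of budding yeast (Saccharomyces cerevisiae), 96 that are named for open reading frames (ORFs) had a high score after 120 min of rapamycin. They were chosen by their value in the 120 min column alone. A feature was taken when its name was that of a nuclear ORF and its value lay more than 3 robust SDs (the median absolute deviation scaled to the SD of a normal distribution) above the median of all measured features. Of 5806 ORF-named features 5699 had a value at 120 min, so the 96 made up 1.68% of those measured. Over features of every kind the share was 4.24%. The rule fixes these shares, and nothing is read from them.

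Maf1 represses RNA polymerase III (Pol III), which makes tRNAs, the 5S ribosomal RNA and a few other small RNAs. Most tRNA genes are recognised by the factor TFIIIC through promoter boxes inside the gene, and TFIIIC places TFIIIB upstream of the start, where it recruits Pol III. Nutrient shortage or inhibition of the TOR kinase by rapamycin leads to dephosphorylation of Maf1, which then enters the nucleus, binds Pol III and represses it. In yeast, tRNA genes lie scattered over all nuclear chromosomes, mostly singly between protein genes, so the intergenic stretch beside many an ORF borders on a tRNA gene.

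All cells carried myc-tagged Maf1 and grew in YPD, a rich medium, to an optical density of 0.6. There were 3 groups: an untreated culture and treatments of 30 min and 120 min with 0.2 ng/ul rapamycin, an inhibitor of TOR. Crosslinked chromatin was depleted of Maf1 with antibodies, and its DNA, labelled with Cy5, was hybridized together with input DNA, labelled with Cy3, on intergenic arrays. Each group has 1 deposited column, which averages 3 replicates. The spread between replicates is therefore unknown, differences are given as descriptions with no test, and p-values are absent throughout. Cells without the tag were not analysed here.

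Values are deposited scores minus the column median, in score units, called centred scores. The labels give neither the log base nor which DNA is on top of the ratio. A higher score is therefore not read as more or less Maf1, and if the ratio runs the other way, high and low change places throughout. In the order untreated, 30 min and 120 min, a robust SD was 0.388, 0.442 and 0.512, so that the limit of 3 robust SDs stood at 1.16, 1.33 and 1.54 above the column median. The name of an ORF does not place its feature, since no label tells whether the stretch lies before or after that ORF.

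The features already scored above most others in the earlier columns. In untreated cells, a column that the rule did not use, the centred scores of the 96 features ran from -0.20 to 1.60 with a median of 0.88, against a median of -0.04 over the ORF-named features that were not chosen. At 30 min, likewise unused by the rule, they ran from -0.28 to 1.15 with a median of 0.64, against -0.04. At 120 min, the column that chose them, they ran from 1.54 to 2.74 with a median of 1.77. In each of the columns before 120 min, 95 of the 96 lay above the column median. The exception in untreated cells was VAC8, named for a vacuolar membrane protein gene, and at 30 min it was KTR1, named for a mannosyltransferase gene.

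Most features were lower at 30 min than before treatment. Between untreated cells and 30 min the median change was -0.27. At 30 min 79 of the 96 features (82.3%) were lower, where 49.4% of all ORF-named features were lower. The rule did not use these columns, but its choice was not independent of the untreated score. Across the 232 ORF-named features with a Pol III gene next at higher coordinates, Pearson's r between untreated and 120 min scores was 0.75. The 147 of these 232 that were not chosen had a median change to 30 min of 0.002. How far the fall goes with the high untreated scores was not tested. The median change to 120 min was 0.94 from untreated cells and 1.17 from 30 min. The rule asks for a high 120 min score, so these last changes only describe how far the features moved. All 96 stood higher at 120 min than in either earlier column, where 54% of ORF-named features stood higher at 120 min than in untreated cells and 54.6% higher than at 30 min. With columns scaled to a common spread the median change to 120 min was 0.56, and after quantile normalization it was 0.15. The median change to 30 min was -0.39 and -0.22 under these settings.

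**Figure D1:**
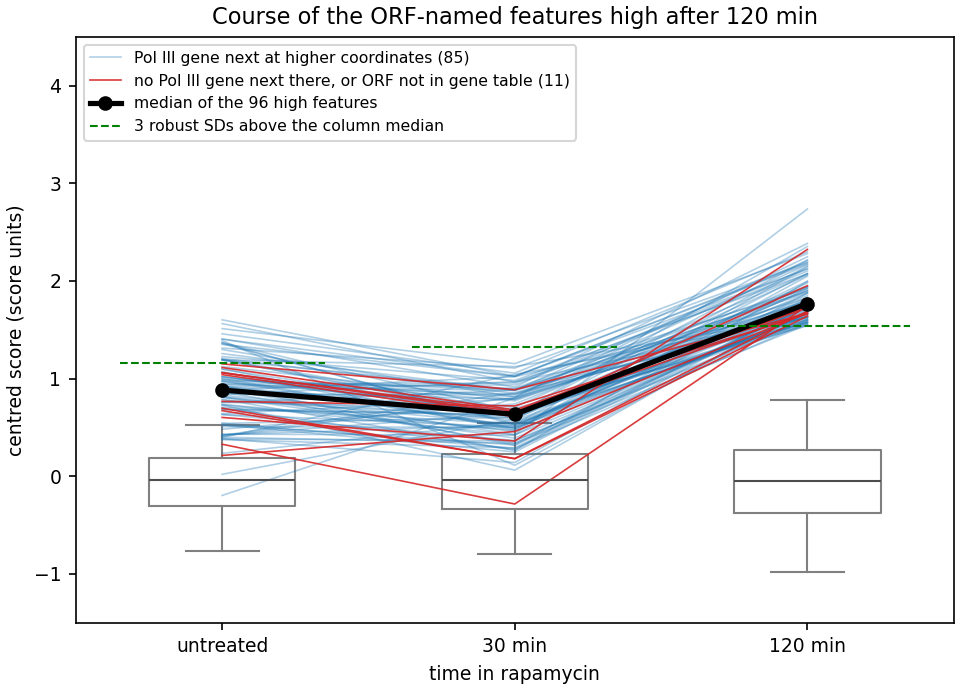
Centred score (vertical axis, score units) in untreated cells and after 30 and 120 min in rapamycin (horizontal axis) for each of the 96 features, with blue lines for the 85 beside a Pol III gene at higher coordinates, red lines for the 11 others and a black line for the median. Grey boxes give the quartiles of the ORF-named features not chosen, with whiskers at percentiles 5 and 95, and green dashes mark 3 robust SDs; the median goes from 0.88 to 0.64 and 1.77, and no 30 min value lies above its dash.

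Few features stood as far out before 120 min. In untreated cells 21 of the 96 lay above 3 robust SDs, where 0.596% of measured ORF-named features and 1.27% of all features did. At 30 min 0 of the 96 lay above the limit, where 4 of 5701 ORF-named features (0.0702%) did. The 30 min column held few high features of any kind, 7 in all.

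What the features shared, and what the rule did not use, was the gene beside them. Gene order was taken from a RefSeq table of assembly R64, in which 286 nuclear genes were counted as Pol III genes: 275 tRNA genes, 6 genes of 5S RNA and 5 others. The 5 others are SNR6 for the U6 spliceosomal RNA, SNR52 for a small nucleolar RNA, SCR1 for the signal recognition particle RNA, RPR1 for the RNase P RNA, and RNA170, a Pol III transcript of unknown function. Of the 96 features 91 were named for ORFs in the table. The next gene at higher coordinates was a Pol III gene for 85 of these 91 (93.4%), against 232 of 5421 measured ORF-named features in the table (4.28%). On the other side, the next gene at lower coordinates was a Pol III gene for 7 of 91 (7.69%), against 217 of 5421 (4%). Of these 7, 6 had a Pol III gene on both sides.

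The reading from the gene side was less complete. Of the 232 measured ORF-named features with a Pol III gene next at higher coordinates, 85 (36.6%) were among the chosen, beside 116 of 245 tRNA-named features (47.3%) above the same limit. The other 147 had a median of 0.66 at 120 min, with values from -3.03 to 1.51. Long terminal repeats of retrotransposons often lie beside tRNA genes and are not in the gene table, so whether a repeat lies between ORF and tRNA gene was not tested. Among the 4987 measured features with no Pol III gene next on either side, 5 (0.1%) were chosen.

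**Figure D2:**
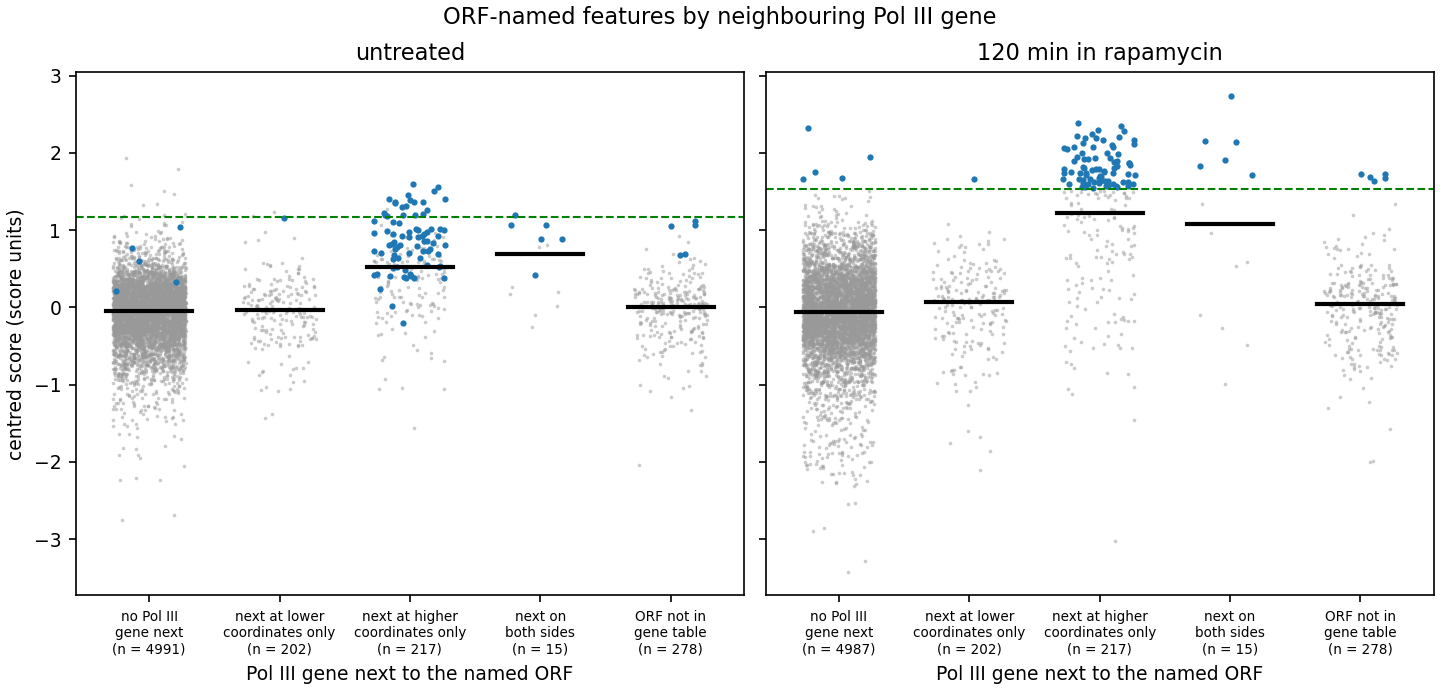
Centred score (vertical axis, score units) of ORF-named features in untreated cells (left) and after 120 min (right), split by where a Pol III gene lies next to the named ORF (horizontal axis). Each dot is a feature, blue for the 96 chosen ones, black bars are medians and the green dashed line is 3 robust SDs above the column median; at 120 min the median is 1.22 with the Pol III gene at higher coordinates only and 0.07 with it at lower coordinates only.

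The 3 top features at 120 min were named for ORFs that precede a tRNA gene in the gene order, each on a different chromosome. YNL035C, an ORF of uncharacterised function that lies between tRNA genes, had a score of 0.89 untreated, of 0.43 at 30 min and of 2.74 at 120 min. NUP192, a nucleoporin gene, had 1.41, 0.91 and 2.38 in the same order, and is followed by a pair of tRNA genes. MIM1, a gene for protein import into the mitochondrial outer membrane, had 1.02, 0.63 and 2.35. All 3 were lower at 30 min than in untreated cells.

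The next in rank were YDC1, a dihydroceramidase gene, with 0.60, 0.36 and 2.32, and PFU1 with 1.46, 1.06 and 2.30. They were followed by COQ8, a gene of ubiquinone synthesis, with 1.51, 1.15 and 2.28, and by the autophagy gene ATG31 with 1.30, 0.81 and 2.25. TGL2, a triacylglycerol lipase gene, had 1.19, 0.64 and 2.21. MEF2, for a mitochondrial translation factor, had 0.75, 0.88 and 2.21, and the last of the 10 highest, named for a gene of the signal recognition particle receptor, had 1.31, 1.11 and 2.19. Of these 10 only YDC1 had no Pol III gene next at higher coordinates, and only MEF2 was higher at 30 min than in untreated cells.

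The named ORFs were counted in lists of genes tied to Pol III and TOR. Of 23 measured features of the Pol III machinery 0 were among the 96, and likewise 0 of 127 features of cytosolic ribosomal proteins and 0 of 18 features of TOR and its effectors. Of 10 features of RNA polymerase I genes 1 was chosen, RPA135, named for the gene of the second-largest subunit, with 0.68, 0.63 and 1.81. Of 41 features of genes for tRNA processing and charging 1 was chosen, YHR020W, named for a prolyl-tRNA synthetase gene, with 0.81, 0.53 and 1.71. RPA135 and YHR020W were also the only features in their lists followed by a tRNA gene on the higher side. The machinery and ribosomal protein lists held 1 such feature each, RPC17, for a Pol III subunit, with 0.98 at 120 min, and RPS25B with -0.53. Beside the 1.68% over all ORF-named features, lists of this size would hold few or none, so these counts say nothing particular about them.

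For 13 of the features the tRNA gene next at higher coordinates has a gene symbol in the table, most of them from suppressor genetics. SUP7 and SUP3, tyrosine tRNA genes known as nonsense suppressors, follow AIM22 with 0.37, 0.29 and 1.76 and TAT2 with 0.38, 0.36 and 1.59. SUP17 follows RGI2 with 1.22, 0.98 and 2.07. The leucine tRNA genes SUP56 and SUP54 follow DFP1, with 1.37, 0.67 and 1.56, and a numbered feature of HEM2, a heme synthesis gene, with 1.20, 0.67 and 1.54. EMT4, a gene of elongator methionine tRNA, follows MRPS8, with 0.63, 0.37 and 1.61. SUF2, a tRNA gene found through frameshift suppression, follows YCR006C, with 1.10, 0.49 and 1.82. ZEO1, followed by SUF1, had 0.94, 0.95 and 2.12. CTK2, a gene of a kinase of the RNA polymerase II tail that is followed by SUP51, had 1.20, 0.60 and 2.15. The other 4, UBA2, VPS71, DCD1 and TSR4, are followed by SUF3, SUF7, SUF8 and SUF17 and stood between 1.58 and 1.74 at 120 min. Of the 13 features 12 were lower at 30 min than in untreated cells, and ZEO1 was 0.01 higher. The anticodons of most other tRNA genes are not in the gene table, so features named for tRNA genes on the array were not paired with them.

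In 3 cases the next gene at higher coordinates was a 5S gene or RNA170. YLR159W and YLR161W, which precede RDN5-5 and RDN5-6 in a repeated stretch with near-identical copies, had 0.70, 0.27 and 1.76, and 0.73, 0.42 and 1.66. Such copies may not be told apart by hybridization. The features named for 5S genes themselves, RDN5-1, RDN5-2 and RDN5-3, stood at 0.52, 0.60 and 0.30 at 120 min, all below the limit. Of the other features named for small RNA genes of Pol III, RPR1 with 0.85, 0.74 and 2.23, SCR1 with 0.76, 0.56 and 2.22 and SNR6 with 0.09, 0.79 and 1.92 ended above the limit, and SNR52 with 0.16, 0.62 and 0.29 below it. RAD14, a gene of nucleotide excision repair followed by RNA170, had 0.40, 1.04 and 1.63, and so was higher at 30 min than in untreated cells. GLC7, the protein phosphatase gene with SNR52 on its lower side and a tRNA gene on its higher side, had 1.07, 0.47 and 2.14, while PMD1, on the other side of SNR52, had 0.05, 0.44 and 0.38. REX3, followed by SNR6, was not among the 96 and had -0.39, 0.34 and -3.03.

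The side of the Pol III gene could be compared within pairs. A pair held a feature named for the ORF at lower coordinates of a Pol III gene and a feature named for the ORF at its higher coordinates, where the latter had no Pol III gene of its own at higher coordinates. There were 161 such pairs at 148 Pol III genes, since 25 pairs shared their gene with another pair through numbered features. In untreated cells the median was 0.51 for the feature named for the ORF at lower coordinates and -0.06 for the other, and the former was higher in 131 of 161 pairs. In 52 of these pairs, at 51 Pol III genes, the former was among the 96, with CLB5 counted in a pair with each of the numbered features of THI22, and it was higher in untreated cells in 51 of 52, with medians of 0.92 and -0.04. At 120 min the medians in these 52 pairs were 1.81 and 0.10, where the rule itself used the former. TCM62 and GIP1, on the lower and higher side of a tRNA gene on chromosome II, show the pattern with 0.79 and -0.06 in untreated cells. RHB1, the yeast Rheb GTPase gene, and FEN2 on chromosome III show it with 1.37 and -0.45.

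Of the 6 features in the table whose next gene at higher coordinates was of another kind, 3 had a Pol III gene behind it. DIA3, KRE6 and NNF2 had a Pol III gene as the second gene at higher coordinates, behind a small ORF or a noncoding transcript. DIA3 had 1.04, 0.61 and 1.95. KRE6, a gene of cell wall glucan synthesis that also has a tRNA gene next at lower coordinates, had 1.15, 0.89 and 1.67, and NNF2 had 0.77, 0.72 and 1.66. Their courses lay within the range of the 85.

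The remaining 5 features were named for ORFs that the gene table does not hold: YCR062W, YIL015C-A, YLR230W, YMR046W-A and YOL013W-A. Placed between the numbered ORFs that flank them, all 5 fell in a stretch that holds a tRNA gene, SUP61 for YCR062W, a serine tRNA gene. Of 278 measured features with such names, 22 fell in a stretch with a Pol III gene and 5 of these (22.7%) were chosen, against 0 of 256 without. They started at 0.67 to 1.11, stood at 0.18 to 0.68 at 30 min and at 1.64 to 1.73 at 120 min. All 5 were lower at 30 min than in untreated cells.

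That leaves 3 of the 96 with no Pol III gene among the nearest 2 genes on either side. YDC1, followed by ELP3, ended at 2.32 as given above, the fourth-highest score of the 96. KTR1, followed by CRC1, had 0.33, -0.28 and 1.75. A numbered feature of MGA1, a gene for a protein like heat shock factor, had 0.21, 0.46 and 1.67. In untreated cells all 3 lay below the lower quartile of the 96, which was 0.64. Their scores at 120 min rest on 1 averaged column each.

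Features high in untreated cells were split by their neighbour. Above the untreated limit there were 34 ORF-named features, of which 21 (61.8%) were among the 96, making 21.9% of the 96. Their untreated score picked the 34, so falls from that score are only described. Of the 22 that had a Pol III gene next at higher coordinates, 21 were among the 96. The exception was HOG1, the stress kinase gene, with 1.27, 0.08 and 0.02. Of the 12 without such a neighbour 0 were among the 96, and their median went from 1.33 in untreated cells to 0.12 at 30 min and -0.11 at 120 min, where 7 of 12 lay below the column median. The median of the 21, which were picked by both their untreated and their 120 min score, went from 1.35 to 0.89 and 2.08. The 22 made up 9.48% of the features with a Pol III gene next at higher coordinates, and the difference between both courses was not tested. The highest untreated score of an ORF-named feature was 1.94 at NPR1, a protein kinase gene with no Pol III gene next, which stood at -0.02 and 0.90 later.

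**Figure D3:**
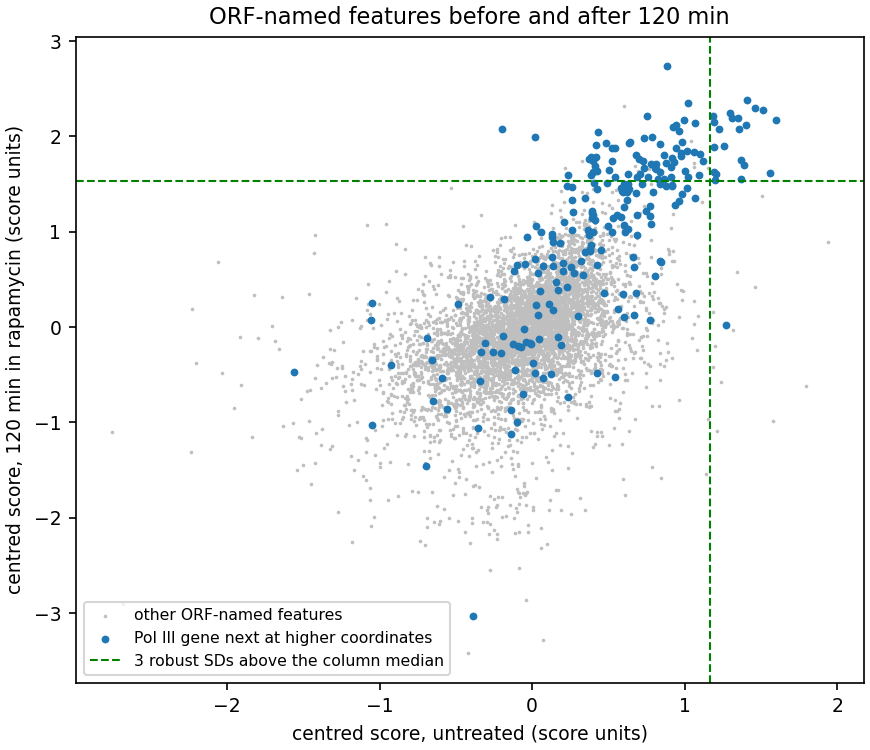
Centred score of each ORF-named feature in untreated cells (horizontal axis, score units) against that after 120 min in rapamycin (vertical axis, score units), with blue dots for features followed by a Pol III gene at higher coordinates and green dashed lines at 3 robust SDs of each column. Of the 22 blue dots to the right of the vertical line 21 also lie above the horizontal line, and of the 12 grey dots there none does.

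Across the 232 features with a Pol III gene next at higher coordinates the columns went together, with Pearson's r of 0.63 between untreated cells and 30 min, 0.75 between untreated cells and 120 min and 0.70 between 30 and 120 min. Across the 96 alone, whose 120 min range the rule cuts off, r was 0.45, 0.26 and 0.28. These are descriptions across features of the same arrays, which share their probes and differ in unknown base composition and length. No r over all ORF-named features is given, so these values are not read as particular to features beside Pol III genes.

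Some features had a course unlike that of the median. VAC8 had -0.20, 0.80 and 2.07 in the order of the columns, and INP2, a gene of peroxisome inheritance, had 0.02 in untreated cells and 0.58 at 30 min. Both started near or below the column median and had changes of 2.27 and 1.98 to 120 min, the highest of the 96. NUP100, a nucleoporin gene, had 0.24, 0.56 and 1.59, and YAP3, a transcription factor gene, had 0.42, 0.85 and 1.79. These 4 features belonged to the 17 that were higher at 30 min than in untreated cells. At the other end SEC7, a gene of Golgi transport, had 1.56, 0.96 and 1.62, and thus ended only 0.06 above its untreated score. VOA1, a gene for assembly of the vacuolar ATPase, had 1.39, 0.11 and 1.70, and its change to 30 min of -1.28 was the lowest of the 96. RHB1 with 1.37, 0.52 and 1.75 and RAD30, the gene of DNA polymerase eta, with 0.73, 0.06 and 1.74 followed the same form. PUT1, the proline oxidase gene, had the highest untreated score of the 96 at 1.60, and stood at 1.03 and 2.17 later. ERV1, a sulfhydryl oxidase gene of mitochondria, differed least between 30 and 120 min, with 1.19, 1.12 and 1.63.

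The strand letters in the names give the orientation of the Pol III gene. When it lies at higher coordinates and has the letter C (Crick strand), its 3′ end faces the ORF, and with W (Watson strand) its 5′ end does. Over the 117 features beside a C gene the medians of the 3 columns were 0.60, 0.52 and 1.45. Over the 115 beside a W gene they were 0.40, 0.29 and 0.63. Chosen were 47 of 117 (40.2%) and 38 of 115 (33%). Where ORF and Pol III gene were both on the W strand the medians were lower, with a median of 0.16 in untreated cells and 0.30 at 120 min over 55 features, of which 11 (20%) were chosen. With the ORF on C and the Pol III gene on W the medians were 0.57 and 1.15 over 60 features, of which 27 (45%) were chosen. With the ORF on W and the Pol III gene on C they were 0.59 and 1.42 over 45 features, of which 16 (35.6%) were chosen. With both on C they were 0.61 and 1.47 over 72 features, of which 31 (43.1%) were chosen. The distributions overlapped widely in all 4 arrangements.

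**Figure D4:**
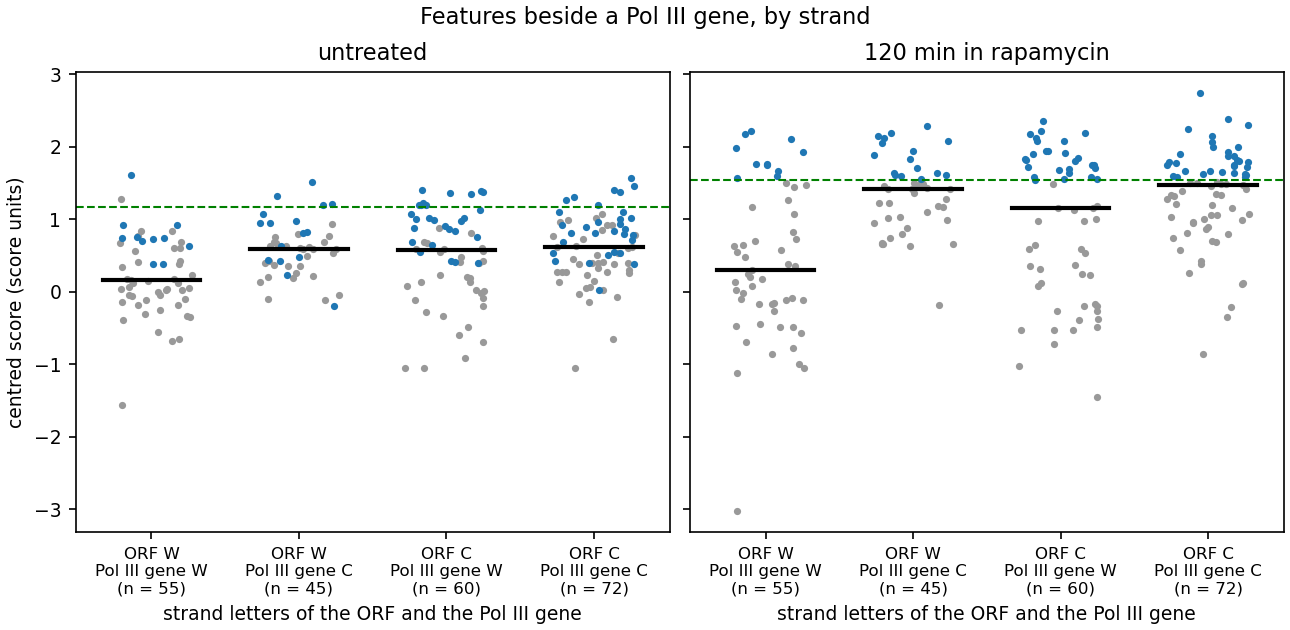
Centred score (vertical axis, score units) in untreated cells (left) and after 120 min (right) of the 232 features with a Pol III gene next at higher coordinates, split by the strand letters of the ORF and the Pol III gene (horizontal axis). Blue dots are the chosen features, grey dots the others, black bars medians and green dashes 3 robust SDs; with both on W the medians are 0.16 and 0.30, and in the other 3 arrangements they are at least 0.57 and 1.15.

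Some ORFs are followed by a pair of Pol III genes. Of the 15 features whose nearest 2 genes at higher coordinates were both Pol III genes, 9 (60%) were chosen, beside 76 of 217 (35%) with a single one. The medians of the 3 columns were 0.85, 0.48 and 1.60 over the 15, and 0.53, 0.45 and 1.19 over the 217. The 9 include SPT7, a gene of the SAGA coactivator, with 0.98, 0.90 and 1.95, and NCE103, the carbonic anhydrase gene, with 1.21, 0.85 and 1.60. The 6 others ranged from -0.18 at SPO13 to 1.33 at CIT1 at 120 min.

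Numbered features let the score be followed along a stretch. Some ORF names cover several features with a running number, and 5 of the 96 were of this kind. YDL211C had 3 of them, with 0.23, -1.03 and 2.08 at 120 min and 0.03, -1.05 and 1.36 in untreated cells, so that only the last was high. EXG2, a glucanase gene, had 1.06 and 1.74 at 120 min and 0.03 and 0.53 in untreated cells. HEM2 had 0.12 and 1.54 at 120 min and 0.67 and 1.20 in untreated cells. NNF2 and MGA1, which complete the 5, have no Pol III gene next, and their last feature was also the high one at 120 min. NNF2 had -0.58 and 1.66 at 120 min and -1.35 and 0.77 in untreated cells. MGA1 had -0.17 and 1.67 at 120 min and 0.28 and 0.21 in untreated cells. Over all 11 numbered stretches with a Pol III gene next at higher coordinates, the last feature scored above the first in 9, 9 and 10 of the 11 in the order of the columns. The median difference was 0.51, 0.30 and 0.74. In numbered stretches with no Pol III gene next, the last was above the first in 82 of 169 in untreated cells (48.5%) and in 90 of 168 at 120 min (53.6%). The labels do not say in which direction the numbers run.

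**Figure D5:**
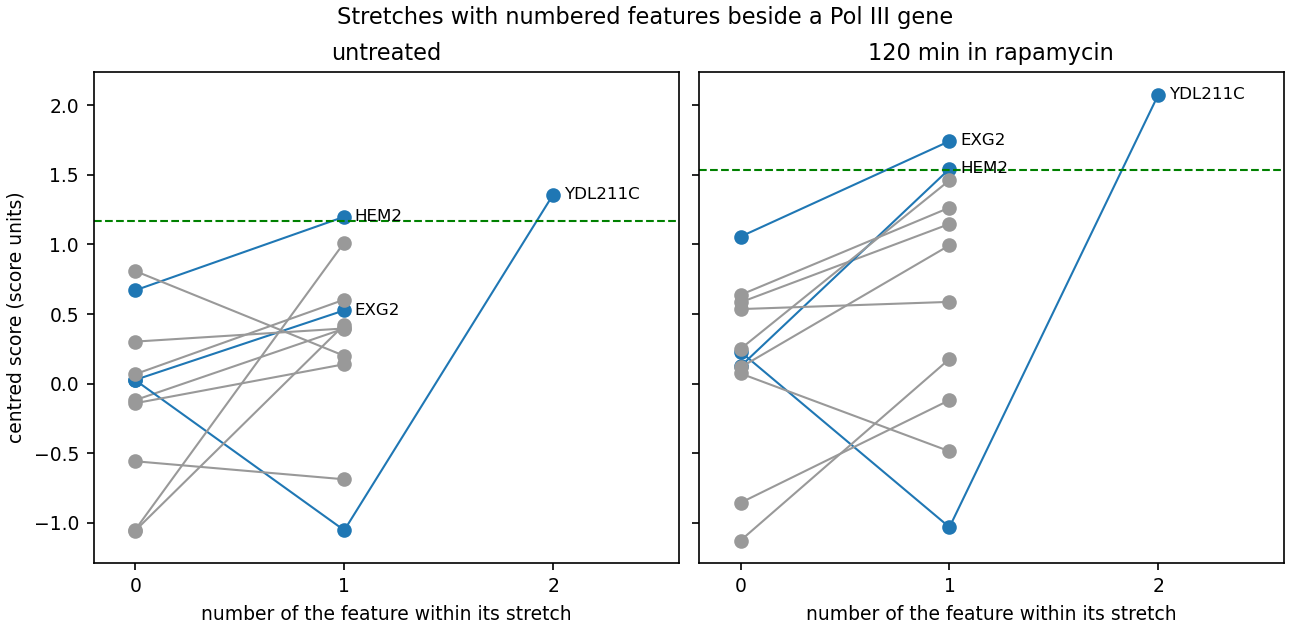
Centred score (vertical axis, score units) in untreated cells (left) and after 120 min (right) of the features in 11 numbered stretches whose ORF has a Pol III gene next at higher coordinates, by their number (horizontal axis), with a line for each stretch. Blue lines are the stretches with a chosen feature, all of them chosen at the last number, and the green dashes mark 3 robust SDs; at 120 min 10 of 11 lines end above their start.

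The features lay on all 16 nuclear chromosomes. There were 13 of 700 measured ORF-named features on chromosome IV and 13 of 530 on chromosome VII, which hold 28 and 36 Pol III genes. Chromosomes I and VI, with 4 and 10 Pol III genes, had 1 of 114 and 1 of 132. Chromosome V had 5 of 271 beside 23 Pol III genes. The share over all chromosomes was 1.68%, and differences between chromosomes were not tested. The chromosome medians of the chosen features ran from 0.53 on chromosome VI to 1.37 on chromosome I in untreated cells, each of which is the value of 1 feature, and from 0.32 on chromosome VI to 0.88 on chromosome X at 30 min. On every chromosome the median was lower at 30 min than in untreated cells.

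The medians of the tRNA-named features were also lower at 30 min and highest at 120 min. All 245 measured tRNA-named features had medians of 0.76, 0.62 and 1.46 in the 3 columns. The 232 ORF-named features with a Pol III gene next at higher coordinates, chosen or not, had 0.53, 0.45 and 1.22. The 116 tRNA-named features above the 120 min limit, cut by the same rule as the ORF-named ones, had 0.97, 0.78 and 1.83. The 85 chosen ORF-named features beside a Pol III gene had 0.89, 0.64 and 1.80. The median change to 30 min was -0.19 over the 116 and -0.26 over the 85. Without the cut it was -0.14 over the 245 and -0.07 over the 232. Over the 147 of the 232 that were not chosen it was 0.002. No test of the difference between these sets could be made from averaged columns.

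The limit cut through closely spaced scores. The 5 features just inside were HEM2 at 1.54, FYV6 and YKL069W at 1.55, DFP1 at 1.56 and TTI1 at 1.57. The 5 just outside were MLH2 and ARP10 at 1.51, and STB2, FCF1 and CCH1 at 1.50. All 5 inside had a Pol III gene next at higher coordinates, and so had those outside except STB2, which is followed by STV1. The untreated scores of these 5 outside ran from 0.41 to 0.78, and those of the 5 inside from 0.83 to 1.37.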

How the data were processed

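Per the labels, the authors hybridized DNA of immunodepleted (Cy5) and input (Cy3) chromatin together and deposited 1 column for each of 3 conditions, an average over 3 replicates that had been normalized to a list of genes. Neither that list nor background correction, spot filters, array design or genome build is given in the sources used. The deposited values were treated as a score, with log base and direction of the ratio unknown. The deposited medians were -0.00875, 0.0527 and 0.0168. From each column its median was subtracted, taken over the 6284, 6282 and 6279 measured features. The number of arrays limits the precision, and 0 columns lacked a sample.

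ORF names were matched to a RefSeq table of assembly R64, which held 5525 of 5806, and the next gene on each side was read from its order. No coordinates are printed. The members and gene lists were chosen with earlier results of these data known. Named features are the 10 highest, the 5 on either side of the limit, those without a Pol III gene next and list members. Others were picked from the extremes of each earlier column and change and from features high before 120 min. Not all features of these last groups are named. Features that illustrate a neighbour, strand or numbering were chosen after their values were seen. The rule was run on simulated normal scores with shifts far above the limit, which cannot show how it treats scores close to the limit. Python 3.11.15, pandas 2.3.3 and scipy 1.17.1 were used.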

Additional observations from a re-analysis of the deposited data

How the results depend on the processing

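With 1 averaged column per condition there was no replicate spread to judge alternatives by, so a value counted as moved when it changed by over 1.5 times. Of 66 recomputed values, over 12 results, 53 stayed within that range, 13 moved and none changed direction. The change from untreated cells to 120 min was 0.56 with the spread made equal and 0.15 after quantile normalization. In that order it was 0.56 and 0.13 for the features with a Pol III gene next and 0.60 and 0.20 for the 10 others. Most of these 10 also lie near a Pol III gene. They include DIA3, NNF2 and the 5 features named for ORFs outside the gene table. The change from 30 to 120 min was 0.39 after quantile normalization. Above 3.5 robust SDs there were 45 features, 43 of them with a Pol III gene next at higher coordinates. With the SD in place of the robust SD there were 21, of which 5 lay above the untreated limit. With each chromosome centred separately 2 lay above the 30 min limit. Counting the nearest 2 genes, 13 had a Pol III gene at lower coordinates. Counting tRNA genes alone, chosen after seeing the data, 82 had such a gene next at higher coordinates. No paired analysis was possible because each condition has 1 column.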
